A study of Mus musculus with 57 samples.

Results

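The genes described here are Myc, Mycn, Mycl, Max, Mxd1, Mxd4 and Mxi1, 7 of the 21118 genes in a count table from astroglia of the mouse cerebral cortex. They make up the core of the MYC, MAX and MXD network of transcription factors, were taken by their gene symbols, and were all measured. The set was chosen by a measured value of these libraries, the lower count level of Myc at postnatal day 35 (P35) than at P14. That step is therefore described below with no test, as are the steps from P7 to P14 and from P35 to adult for Myc itself, which reuse its P14 or P35 values.

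Ribosome-bound messenger RNA was collected by translating ribosome affinity purification (TRAP), which pulls tagged ribosomes and the messages on them out of a tissue homogenate. All 53 mice carried the same allele, Aldh1l1-L10-GFP, on a C57BL/6 background: ribosomal protein L10 is fused to GFP and driven by Aldh1l1, a gene of astrocytes, and no mouse carried another labelled allele or received a labelled treatment. Each library came from the whole cortex of 1 animal, in 12 groups of age and sex. In the order P1, P4, P7, P14, P35 and adult, there were 4, 4, 8, 5, 3 and 4 libraries from animals labelled female and 4, 4, 4, 5, 3 and 5 from animals labelled male.

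MYC, MYCN and MYCL are activators that bind DNA as partners of MAX, preferably at the E-box, and drive genes of growth, ribosome production and the cell cycle. The proteins of the MXD family compete with them for MAX and bring in SIN3 and histone deacetylases, which silence the same kinds of site. The balance is known to shift from MYC to MXD proteins as many cell types leave the cell cycle and mature, and astrocytes of the cortex divide in the first postnatal weeks. The counts measure messages on ribosomes and not the proteins, which are short-lived and regulated after translation.

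Total counts ran from 14768178 to 48541139 per library, with a median of 24033399, and each level is in CPM, the count after rescaling of every library to one size. Of the 53 libraries, 12 had Y-linked transcripts against their labelled sex, and 3 (P1 female 4, P7 female 40 and P14 male 4) had at least 10 counts in fewer genes than the rest. The first digit of a library's number defines a replicate set (1, 2, 3, 4 or 6), and 4 P7 libraries from a second sequencing run alone form a set of their own. All 15 mature astrocyte markers examined were detected, but so were markers of other cells. Summed over 10 genes, neuron markers lay between 1567 and 11058 CPM, and their median was highest in sets 3 and 6 and in the second run. In bulk samples fewer cells of a type and less RNA per cell cannot be told apart.

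The 3 MYC genes were lower in adults than at P1, by 6.74-fold for Myc, 8.24-fold for Mycn and 11.3-fold for Mycl. Among the MXD genes, Mxd4 was 1.90-fold and Mxi1 2.06-fold higher in adults, while Max and Mxd1 did not pass the test. In all, 5 of the 7 members passed it, against 41.3% of all genes in this comparison, which shares no library with the step that chose the set. Of all genes, 21.8% were higher and 19.5% lower.

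**Figure D1:**
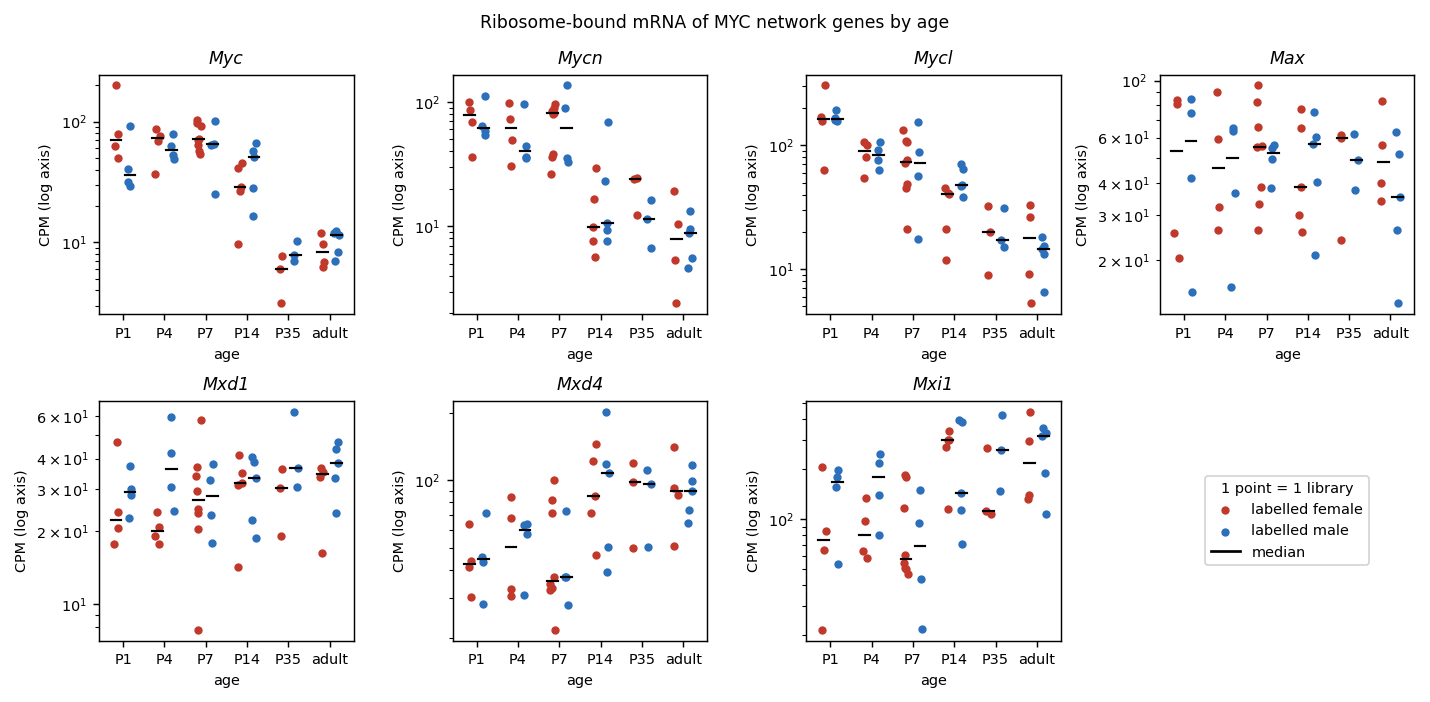
Levels of the 7 genes in every library, in CPM on a log axis, by age, with libraries labelled female to the left of those labelled male and the median of each group as a black line. All adult points of Myc, Mycn and Mycl lie below all P1 points, whereas those of Max, Mxd1, Mxd4 and Mxi1 overlap.

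Myc, the founding member, lies at chr15:61985391-61990374 on the plus strand (GRCm38). It had 6.29, 9.67 and 12.5 CPM as the lowest, median and highest of 9 adult libraries, against 29.3, 56.4 and 199 CPM in 8 P1 libraries. Every adult library was below every P1 library, a separation that 6.26% of all genes showed in either direction. The fitted log2 difference was -2.75 ± 0.29 (SE), with a 95% interval from -3.33 to -2.18 (edgeR adjusted p = 2.39e-10). The highest P1 value belonged to P1 female 4, a library with few genes detected. Without any 1 of the 53 libraries the difference stayed between -2.86 and -2.50, and within each of 5 replicate sets Myc was lower in adults, by -3.57 to -1.72 on the log2 scale.

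The first 3 ages had similar levels of Myc, with medians of 56.4 CPM at P1, 66.1 at P4 and 67.9 at P7. At P14 the 10 libraries had 9.74, 34.9 and 66.2 CPM as lowest, median and highest, against 25.1, 67.9 and 103 CPM in 12 P7 libraries. These ranges overlap. In the model the 4 P7 libraries of the second run have a level of their own, as a set with no other age. They enter a fitted difference from P7 only through the difference between the sexes at P7. It therefore rests on the level of the other 8 P7 libraries, in which P7 male 2 and P7 male 6 are the only males. The fitted log2 difference was -0.75 ± 0.27. It was -0.40 without P7 male 2 and -0.97 without P7 male 6, the ends of the range over the 53 fits that each left out 1 library. The P14 values of Myc are among those that chose the set, so no test is given.

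The step that chose the set, P35 against P14, is given here as values and fitted differences, which describe it and do not test it. The P35 females had 5.99, 7.67 and 3.13 CPM of Myc, against 45.8, 9.74, 28.6, 41.1 and 26.7 CPM in P14 females. The P35 males had 10.3, 7.89 and 6.98 CPM, against 51.0, 28.0, 16.6, 66.2 and 57.5 CPM in P14 males. In females every P35 value was below every P14 value, the nearest being 9.74 CPM in P14 female 2, and the same was true in males. The fitted log2 differences were -2.53 ± 0.46 in females and -2.41 ± 0.46 in males. Mycl had a difference of -1.21 ± 0.33 as the mean of the sexes. Those of Mycn, Max, Mxd1, Mxd4 and Mxi1 lay between -0.15 and 0.15.

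The median of Myc was 9.67 CPM in adults and 7.32 CPM at P35, and the fitted log2 difference was 0.57 ± 0.31. The set was chosen for low Myc at P35, so this difference is a description with no test. In this comparison 0% of genes passed, none of the other 6 members among them. By edgeR 884 genes had an unadjusted p under 0.05, and DESeq2 called 114 genes and no member.

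Mycn, the family member known from neural progenitors of the embryo, lies at chr12:12936093-12941914 on the minus strand. Adult libraries had 2.41, 8.88 and 19.3 CPM as lowest, median and highest, against 36.2, 66.7 and 112 CPM at P1, with no overlap. The log2 difference was -3.04 ± 0.24 (edgeR adjusted p = 2.97e-13). It was lower in adults within all 5 replicate sets, by -3.94 to -2.70.

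Mycn fell between P7 and P14. At P14 the lowest, median and highest of 10 libraries were 5.73, 10.2 and 68.9 CPM, against 26.5, 80.9 and 135 CPM in 12 P7 libraries. Without the 4 P7 libraries of the second run the P7 median was 37.1 CPM. The fit rests on the level of the other 8 P7 libraries. The log2 difference of -1.57 ± 0.23 passed the threshold (edgeR adjusted p = 0.000200). At P14 only the 2 libraries of set 6 reached into the P7 range, with 29.6 CPM in the female and 68.9 CPM in the male. Within each of 5 sets Mycn was lower at P14, by -2.13 to -0.20. After P14 it stood at 15.9 ± 7.21 CPM at P35 (SD, n = 6) and at 8.83 ± 5.17 CPM in adults (SD, n = 9).

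Mycl, the third paralog, lies at chr4:122995652-123002485 on the plus strand and had the highest level per length of the MYC genes at P1, a mean of 42.4 CPM per kilobase of exon, against 26.9 for Myc and 22.0 for Mycn. Adult libraries had 5.30, 14.6 and 32.7 CPM as lowest, median and highest, against 62.9, 163 and 304 CPM at P1. No adult library reached the P1 range, and the log2 difference was -3.50 ± 0.32 (edgeR adjusted p = 1.45e-11). Within all 5 sets it was lower in adults, by -4.58 to -2.40.

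The median of Mycl was lower at each later age, but no tested step between successive ages passed by itself. Its median was 163 CPM (P1), 85.7 (P4), 73.7 (P7), 42.9 (P14), 18.5 (P35) and 14.6 CPM (adult). Without the 4 libraries of the second run the P7 median was 52.2 CPM. The fits that involve P7 rest on the level of the other 8 P7 libraries. P4 against P1 gave a log2 difference of -1.01 ± 0.30 (edgeR adjusted p = 0.112), in a comparison where 0.44% of genes passed. It passed with DESeq2 (adjusted p = 0.0382), and with edgeR without P1 female 1, where it was -1.15 (edgeR adjusted p = 0.0311). Without P1 female 4, a library with few genes detected that held the highest P1 value, it was -0.76. The edgeR adjusted p reached 0.395 over the 53 fits that each left out 1 library, and 0.850 over the other settings. P7 against P4 gave -0.69 ± 0.32 (edgeR adjusted p = 0.332), with 1.67% of genes past the threshold (1.25% higher). Of the 7 members, 0 passed in either of these steps. P14 against P7 gave -0.33 ± 0.31 for Mycl (edgeR adjusted p = 0.640). Within the 5 sets that difference ran from -1.01 to 0.25, with Mycl higher at P14 in 2 of them. Adults against P35 gave -0.26 ± 0.32.

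**Figure D2:**
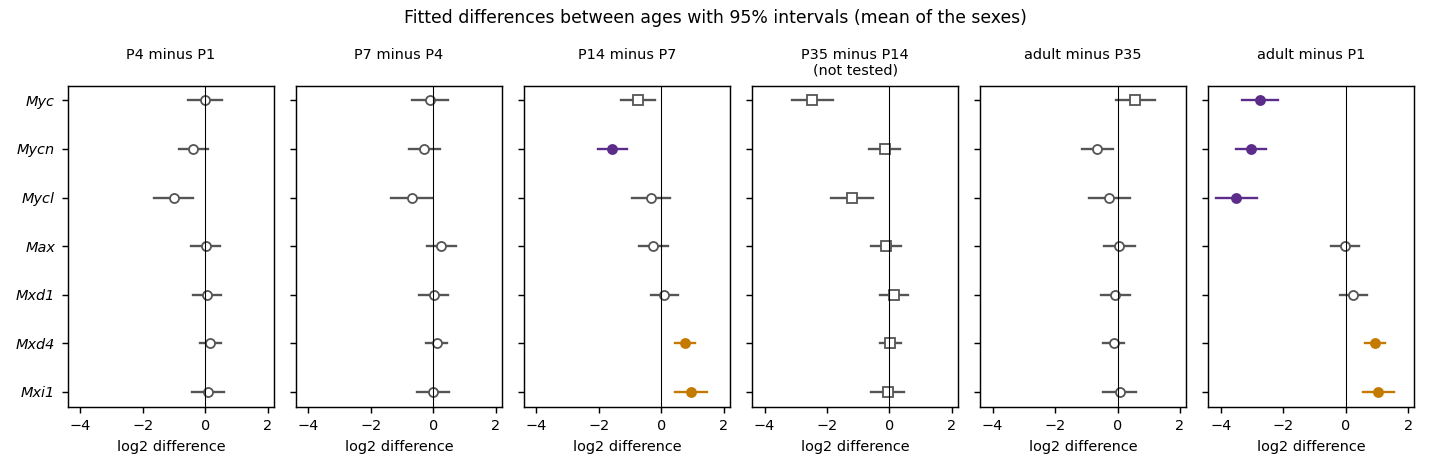
Fitted log2 differences of the 7 genes between successive ages and between adults and P1, as the mean of the sexes, with 95% intervals as lines. Filled symbols passed an adjusted p of 0.05 (purple lower, orange higher at the later age) and open circles did not. Squares mark differences given with no test, and their intervals are not to be read as tests. These are the differences of the step that chose the set and of Myc in the steps on either side of it. Mycn stands apart at P14 minus P7 with -1.57, Myc at P35 minus P14 with -2.47.

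Max encodes the shared partner of MYC and MXD proteins and lies at chr12:76937269-76962201 on the minus strand. It did not pass in any comparison by age or sex. Adult libraries had 13.6, 39.9 and 82.9 CPM as lowest, median and highest, against 15.0, 58.3 and 85.0 CPM at P1. The 2 ranges nearly coincide. The log2 difference of -0.03 ± 0.22 had a 95% interval from -0.48 to 0.42 (edgeR adjusted p = 0.931). Its sign depends on the scaling, with 0.02 under DESeq2-type size factors.

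Mxi1 (also named Mxd2), an MXD repressor first found as a MAX interactor, lies at chr19:53310518-53375810 on the plus strand. Adult libraries had 108, 298 and 445 CPM as lowest, median and highest, against 21.6, 120 and 208 CPM at P1. The ranges overlap, since 4 of the 9 adult libraries, all of sets 3, 4 and 6, had between 108 and 189 CPM. The log2 difference was 1.04 ± 0.25 (edgeR adjusted p = 0.000634), and Mxi1 was higher in adults within each of 5 sets, by 0.35 to 1.44.

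Mxd4, an MXD repressor of differentiating cells, lies at chr5:34173883-34187720 on the minus strand. Adult libraries had 50.9, 89.5 and 140 CPM as lowest, median and highest, against 28.4, 43.8 and 72.1 CPM at P1. The log2 difference was 0.93 ± 0.16 (edgeR adjusted p = 7.59e-06), with 0.71 to 1.15 within the 5 sets. Exons of Mxd4 share 514 bases with the opposite-strand gene Gm42846 and those of Mxi1 share 194 with Gm10197, and reads there cannot be assigned without the strand setting of the counting, which is not given in the sources used here.

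Both genes were already higher at P14 than at P7. Mxi1 had 71.4, 287 and 396 CPM as lowest, median and highest at P14, against 21.7, 57.6 and 184 CPM at P7, and Mxd4 had 39.0, 96.5 and 202 CPM at P14, against 21.7, 37.2 and 101 CPM at P7. Without the second run the P7 medians were 106.0 CPM for Mxi1 and 54.6 CPM for Mxd4. The fits rest on the level of the 8 P7 libraries outside the second run. The log2 differences were 0.95 ± 0.25 for Mxi1 and 0.75 ± 0.16 for Mxd4 (edgeR adjusted p = 0.0249 and 0.00724). Both were higher at P14 within each of 5 sets, by 0.32 to 1.81 for Mxi1 and by 0.28 to 1.17 for Mxd4. With Mycn, 3 of the 6 members tested passed in this step, against 3.3% of all genes (1.65% higher and 1.65% lower at P14). The libraries of the 2 ages overlapped for all 7, as for all but 0.00474% of genes. The step shares its P14 libraries with the step that chose the set.

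The calls between P14 and P7 rest on the replicate set being in the model. In a fit without it that kept only a term for the second run against the rest, edgeR called 4 genes in place of 697. The edgeR adjusted p was then 0.187 for Mycn, 0.394 for Mxd4 and 0.328 for Mxi1, with log2 differences of -1.43, 0.82 and 1.15. Without P7 male 2, 74 genes were called, and Mxi1 had 0.88 (edgeR adjusted p = 0.142). Mxi1 also missed the threshold without P14 female 3 (0.85, adjusted p = 0.0658), without P14 male 2 (0.89, adjusted p = 0.0527) and without P7 female 30 (0.91, adjusted p = 0.0505), whereas Mycn and Mxd4 passed in all 53 such fits. Markers of cell types moved in the same step. At P14, 7 of 15 mature astrocyte markers were higher and 4 of 8 markers of dividing cells lower. Of 10 neuron markers 3 were lower and 0 higher. Of 7 oligodendrocyte markers 2 were higher and 0 lower, with a median log2 difference of 1.68. Markers of oligodendrocyte progenitors, microglia, and endothelial and mural cells had 0 past the threshold. Over all genes 1.65% were higher and 1.65% lower. The part of these cell types in the result was not tested.

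Mxd1, the first MXD gene to be described, lies at chr6:86647042-86669161 on the minus strand and had the lowest mean level per length of the 3 MXD members at every age. Adult libraries had 16.2, 35.3 and 46.9 CPM as lowest, median and highest, against 17.6, 26.2 and 46.9 CPM at P1. The ranges coincide, and the log2 difference of 0.24 ± 0.21 had a 95% interval from -0.19 to 0.67 (edgeR adjusted p = 0.381). It was -0.0010 without the 12 libraries that went against their sex label.

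The promoters of Mxd4 and Max are shown because, of the 6 members with an entry in the promoter table (all but Myc), they hold a canonical E-box, CACGTG, the hexamer that MYC, MXD and MAX proteins bind, in a window from 250 bases before to 50 after the transcription start (RefSeq, GRCm38.p6). The capitals mark that hexamer, which reads the same on both strands. Mxd4 is from chr5:34187661-34187960 and Max from chr12:76962199-76962498, both on the minus strand and written 5' to 3'.
Mxd4: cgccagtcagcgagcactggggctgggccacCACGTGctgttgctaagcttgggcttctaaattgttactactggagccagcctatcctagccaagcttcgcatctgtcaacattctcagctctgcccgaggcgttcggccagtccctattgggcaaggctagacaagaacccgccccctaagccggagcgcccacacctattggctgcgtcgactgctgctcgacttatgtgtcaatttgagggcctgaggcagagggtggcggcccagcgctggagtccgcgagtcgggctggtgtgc
Max: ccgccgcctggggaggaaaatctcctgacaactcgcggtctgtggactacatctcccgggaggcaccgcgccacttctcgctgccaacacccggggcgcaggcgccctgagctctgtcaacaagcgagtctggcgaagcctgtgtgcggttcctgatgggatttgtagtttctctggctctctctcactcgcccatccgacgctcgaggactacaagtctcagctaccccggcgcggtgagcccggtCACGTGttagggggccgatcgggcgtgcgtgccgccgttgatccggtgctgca
The hexamer starts at base -219 from the start of Mxd4 and at base -3 from that of Max. Of these 6 members 2 held it, against 8.09% of 27025 genes and 7.15% of 32851 promoters. A match is a description of the sequence and does not show binding.

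The summed level of each family was also set against the other within a library, in CPM per kilobase of exon so that genes of different length could be added. The 3 MYC genes together had 4.36, 9.85 and 17.5 as lowest, median and highest in adults, against 45.0, 84.3 and 169 at P1. The 3 MXD genes together had 27.9, 58.6 and 81.2 in adults, against 10.9, 27.8 and 44.6 at P1. The ratio of MYC to MXD genes had a median of 3.32 (P1), 1.99 (P4), 4.60 (P7), 0.494 (P14), 0.277 (P35) and 0.183 (adult). The P7 median rests on the 4 libraries of the second run, a set with no other age, which had 4.71 to 11.9; the other 8 P7 libraries had 1.05 to 5.02, with a median of 1.54. Within the 5 other sets the mean ratio at P14 was 0.139 to 0.755 times that at P7, and in adults 0.0213 to 0.112 times that at P1, below 1 in all of them. At P7 it was 0.512 to 1.26 times that at P4, above 1 in 3 sets and below 1 in 2. At P14 the ratio ran from 0.151 to 3.27, the highest in P14 male 6, which lay inside the range at P7. All 9 adult libraries lay at or below 0.571, whereas the lowest ratio up to P7 was 0.985. The P35 ratios, 0.113 to 0.639, and the P14 ratios contain the Myc values that chose the set, so at these ages they are a description with no test. Max by itself had medians between 11.1 and 16.2 CPM per kilobase over the 6 ages.

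**Figure D3:**
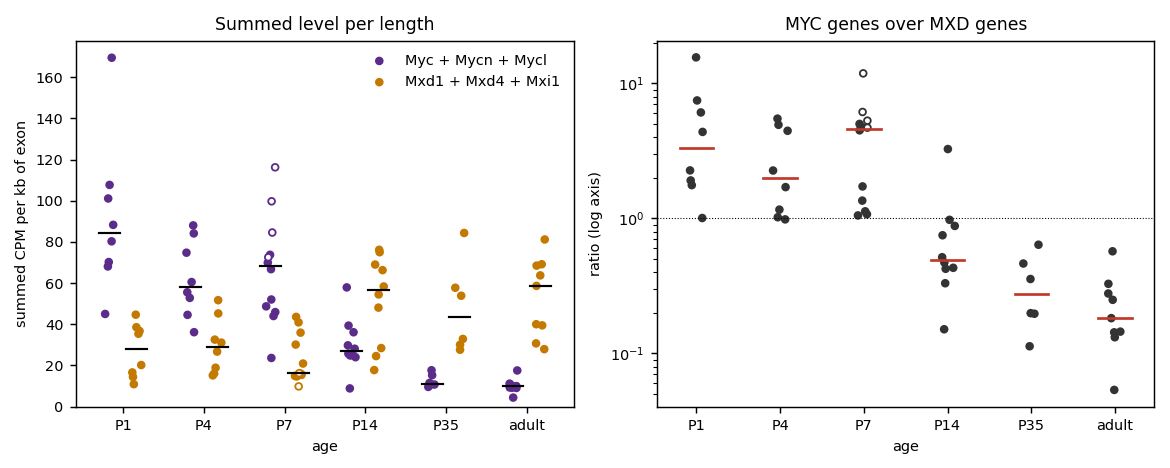
Summed levels of the MYC genes (purple) and the MXD genes (orange) in every library by age, in CPM per kilobase of exon, at the left, and their ratio on a log axis at the right, with medians as lines and a ratio of 1 dotted. The MXD sum and the ratio leave out Mxd3. Open points are the second run, sequenced from P7 animals alone. The median ratio is 0.494 at P14, against 4.60 at P7 with and 1.54 without these libraries. The MYC sums and ratios at P14 and P35 contain the Myc values that chose the set.

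Each member's share of its family's sum was also taken, again without Mxd3. Mxi1 made up a median of 70.7% of the MXD sum in adults and 63.1% at P1, Mxd4 19.0% in adults and 22.4% at P1, and Mxd1 9.03% in adults and 14.7% at P1. Myc made up a median of 27.5% (P1), 38.6% (P7), 41.3% (P14), 20.7% (P35) and 44.4% (adult) of the MYC sum. The shares at P14 and the low share at P35 contain the Myc values that chose the set. Mycl had a median share of 44.3% at P1, 41.4% at P35 and 38.4% in adults. The shares ranged widely among libraries of 1 age, for Myc in adults from 20.3 to 53.1%.

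Of 6 further genes of the network, 2 were lower and 2 higher in adults, against 19.5% lower and 21.8% higher of all genes. Mxd3, the MXD gene known to be expressed in dividing cells, averaged 0.829 ± 0.602 CPM in adults and 14.3 ± 9.64 CPM at P1 (SD, n = 9 and 8). It ran opposite to Mxd4 and Mxi1, with a log2 difference of -3.98 ± 0.63 (edgeR adjusted p = 2.14e-06). Mnt, a MAX-binding repressor of many tissues, averaged 25.1 ± 10.7 CPM in adults and 17.3 ± 7.43 CPM at P1, a log2 difference of 0.62 ± 0.19 (edgeR adjusted p = 0.00659). Mlx is the parallel partner of the glucose-sensing factors Mlxip (MondoA) and Mlxipl (ChREBP). Mlxip was lower in adults by a log2 difference of -0.55 ± 0.23 (edgeR adjusted p = 0.0468), and Mlxipl higher by 2.29 ± 0.68 (edgeR adjusted p = 0.00602) at a mean of only 1.40 CPM in adults and 0.276 CPM at P1. Mlx (-0.14 ± 0.17) and Mga (0.16 ± 0.19), a MAX partner of a Polycomb complex, did not pass. Without the replicate set in the model 1 gene was higher and 1 lower.

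Among 15 measured genes of MYC cofactors and turnover, 10 were lower and 1 higher in adults, against 19.5% lower and 21.8% higher of all genes. Their median log2 difference was -0.57, against 0.06 over all genes. Aurka, a mitotic kinase that stabilizes MYCN protein, averaged 1.95 ± 0.566 CPM in adults and 23.8 ± 13.8 CPM at P1, a log2 difference of -3.49 ± 0.42. Pim1, a kinase that acts on MYC, differed by -1.79 ± 0.36, and Ruvbl2, an ATPase of chromatin complexes recruited by MYC, by -0.83 ± 0.12. Fbxw7, the ubiquitin ligase subunit that marks MYC for destruction, was the gene that was higher, at 193 ± 86.4 CPM in adults and 104 ± 39.9 CPM at P1 (log2 difference 0.92 ± 0.14, edgeR adjusted p = 6.62e-07). Without the replicate set 6 were lower and 1 higher.

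The corepressors through which MXD proteins act were mostly lower in adults, unlike Mxd4 and Mxi1. Of 9 SIN3 partners 6 were lower and 1 higher in adults, with a median of -0.71, against 19.5% lower and 21.8% higher of all genes. The deacetylase gene Hdac2 averaged 86.5 ± 39.5 CPM in adults and 339 ± 160 CPM at P1, a log2 difference of -1.92 ± 0.19 (edgeR adjusted p = 6.42e-11). The scaffold gene Sin3b differed by -0.72 ± 0.13, the histone chaperone gene Rbbp4 by -1.08 ± 0.20, and Hdac1 by -0.71 ± 0.14.

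Known target genes of MYC were counted in 3 groups, beside 19.5% lower and 21.8% higher of all genes. Of 28 genes of ribosome production, 15 were lower and 0 higher in adults, with a median of -0.57. Fbl, the methyltransferase of ribosomal RNA, averaged 25.9 ± 4.43 CPM in adults and 83.5 ± 48.6 CPM at P1 (log2 difference -1.64 ± 0.21). Its partners in small nucleolar particles, Nop58 and Nop56, differed by -1.47 ± 0.20 and -0.95 ± 0.16, and Ncl, which encodes nucleolin, by -1.55 ± 0.22. Of 24 genes of metabolism and growth, 9 were lower and 2 higher, with a median of -0.24. In either direction 41.3% of all genes passed. Odc1, the first enzyme of polyamine synthesis, differed by -1.37 ± 0.21, Impdh2 of guanine nucleotide synthesis by -1.32 ± 0.18 and the translation factor gene Eif4a1 by -0.98 ± 0.14.

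Of 17 cell cycle targets 12 were lower and 1 higher, against 19.5% and 21.8% of all genes, with the lowest median of the 3 groups, -1.66. Cdk4, the partner kinase of D cyclins, averaged 164 ± 57.3 CPM in adults and 546 ± 197 CPM at P1 (log2 difference -1.79 ± 0.16, edgeR adjusted p = 7.00e-12). Ccnd2, a D cyclin, differed by -1.70 ± 0.22, the replication helicase gene Mcm7 by -2.34 ± 0.29 and the mitotic kinase gene Plk1 by -5.01 ± 0.67. The list also holds genes that MYC represses, which were chosen to be named after their values were seen: the cell cycle inhibitors Cdkn1a (-0.62 ± 0.23) and Cdkn2b (-1.49 ± 0.61) were among the 12, and Gadd45a (0.90 ± 0.33) was the 1 higher. The number of lower genes of ribosome production was 21 without the 3 libraries with few genes and 13 without the replicate set, and those of the cell cycle 12 and 9.

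**Figure D4:**
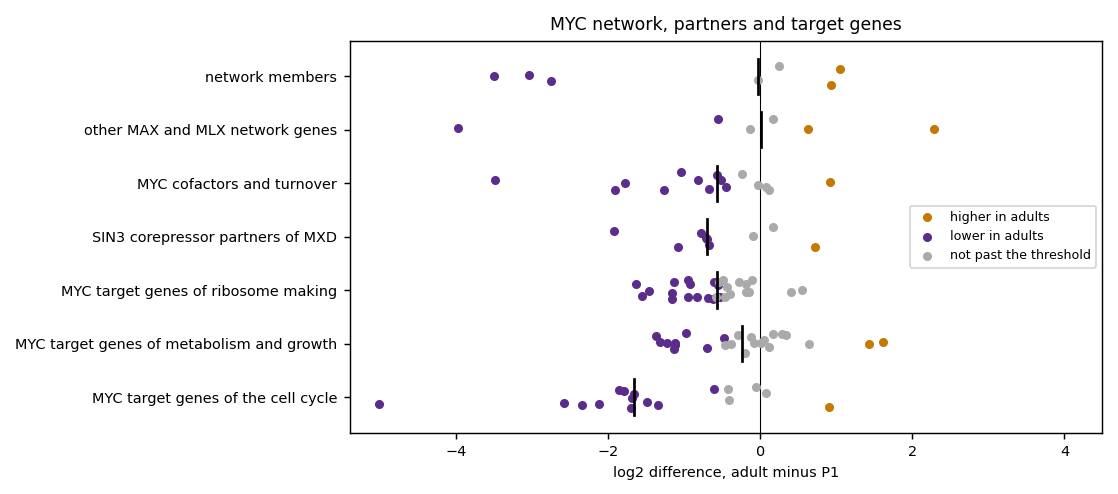
Fitted log2 differences between adults and P1 for each gene of the network and of its partner and target lists (points), with the median of each list as a black line; purple genes were lower and orange genes higher in adults past an adjusted p of 0.05. Most target and partner genes lie left of 0, with medians from -1.66 to -0.24.

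The E-box CACGTG was found in the promoters of 6 of 23 genes of ribosome production (26.1%), 8 of 21 of metabolism (38.1%) and 1 of 14 of the cell cycle (7.14%) that have a RefSeq promoter, against 8.09% of all genes. It was in 3 of 6 other network genes, 2 of 16 of cofactors and turnover (12.5%) and 1 of 8 SIN3 partners (12.5%). The E2F site TTCCCGC, searched on both strands, was in 8.7%, 23.8% and 14.3% of the 3 target groups, against 5.29% of all genes.

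Markers of cell types moved with these groups between the same ages, where 21.8% of all genes were higher and 19.5% lower in adults. Of 8 markers of dividing cells 8 were lower in adults, and their sum was 6.49 to 20.1 CPM in adults, against 144 to 424 CPM at P1. Of 15 mature astrocyte markers 14 were higher and 0 lower, with sums of 4641 to 29655 CPM in adults, against 979 to 6743 CPM at P1. All 7 oligodendrocyte markers and 3 of 6 microglial markers were higher. Neuron markers split into 6 higher and 3 lower of 10, oligodendrocyte progenitor markers into 2 and 2 of 6, and of 6 endothelial and mural markers 0 were higher and 2 lower. No marker of these lists was at 0 in every library of an age. The part of these cells in the levels of the MYC network was not tested.

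Replicate sets differed widely, and so did the members. In a test of any difference between sets, added after the data were examined, 6 of the 7 members passed, against 69.1% of all genes, and Myc did not (edgeR adjusted p = 0.0731). Max had a median of 23.3 CPM in set 2, 35.9 in set 3, 58.7 in set 1, 60.8 in set 6 and 77.5 in set 4. Mxi1 had medians of 279 and 258 CPM in sets 1 and 2, of 144 CPM in set 4, and of 96.6, 89.9 and 45.2 CPM in sets 3 and 6 and the second run. Sets 3 and 6 and the second run had the higher neuron marker sums, with medians of 7017, 8783 and 7739 CPM. Sets 1, 2 and 4 had medians of 1866, 2404 and 2875 CPM. Mature astrocyte markers had medians of 4007, 2730 and 3368 CPM in sets 3 and 6 and the second run. In sets 1, 2 and 4 they had 16200, 9462 and 6599 CPM. These medians pool the ages of a set, and the second run holds P7 animals alone. All 12 P7 libraries together had medians of 3399 CPM for mature astrocyte markers and 7739 CPM for neuron markers. The part of these cell types in the differences between sets was not tested.

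**Figure D5:**
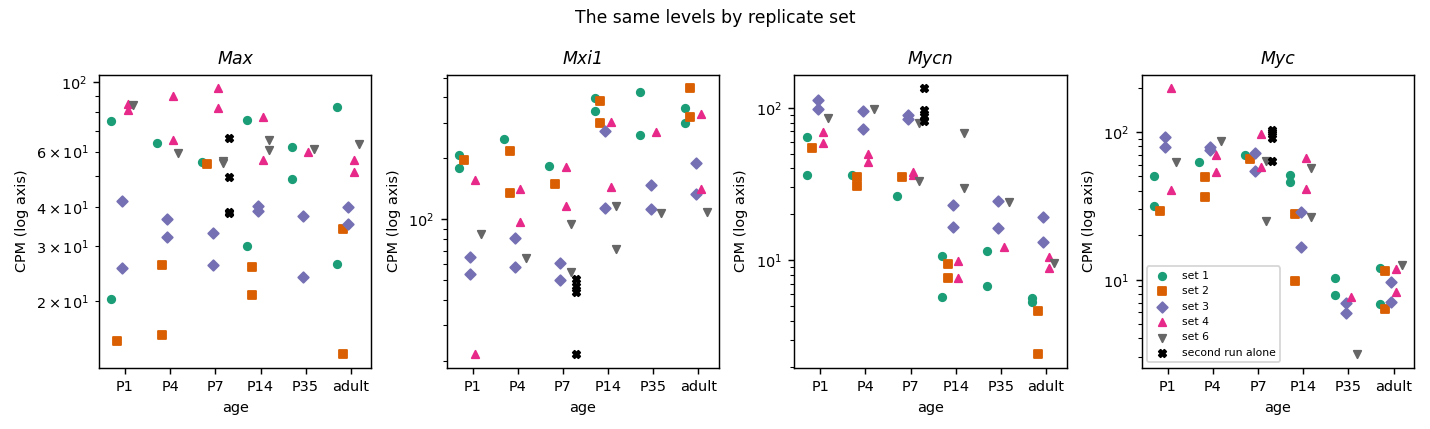
Levels of Max, Mxi1, Mycn and Myc in every library by age, in CPM on a log axis, with colour and shape showing the replicate set. Libraries of set 2 lie low for Max at most ages, sets 3 and 6 mostly lie low for Mxi1 and high for Mycn, and Myc shows less of such ordering.

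No member passed the test between the labelled sexes. The log2 differences of females minus males, as a mean over the 6 ages, lay between -0.16 for Mxd1 and 0.06 for Mxd4, and 0 of 7 passed, against 0.0284% of all genes. The 95% intervals reached no further than -0.43 (Mycn) and 0.31 (Mycl). Adult minus P1 was also compared between the sexes, where 0% of genes passed by edgeR, 1041 had an unadjusted p under 0.05 and DESeq2 called 133, no member among them. Myc differed by -3.36 ± 0.43 in females and -2.15 ± 0.38 in males (difference -1.21 ± 0.55, edgeR adjusted p = 0.971), and by -0.59 between the sexes without the 3 libraries with few genes. Max differed by 0.50 ± 0.33 in females and -0.56 ± 0.31 in males (difference 1.07 ± 0.46, edgeR adjusted p = 0.943).

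Over the means of the 12 groups, the genes most like Myc in pattern among 12069 with a mean of at least 5 CPM were Rras2 (Pearson r of 0.985), Dok5 (0.979), Ppp1r14c (0.974), 9930014A18Rik (0.970) and Smyd2 (0.968). Rras2, a small GTPase of the Ras family, averaged 19.3 CPM in adults and 67.1 CPM at P1. Those most like Mxd4 were Mt1 (0.990), Abhd8 (0.982), Gm16437 (0.977), Cml1 (0.976) and G0s2 (0.974). Mt1, a metallothionein, averaged 6519 CPM in adults and 697 CPM at P1. These correlations are a description over 12 points that share the libraries of each group, and say nothing of shared control. For Myc the points include the P14 and P35 values that chose the set. The group means are not adjusted for the replicate set, and those at P7 include the second run.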

How the data were processed

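Ribosome-bound RNA was measured in 53 libraries, 1 per animal. The deposited values are raw counts per gene. The authors used CASAVA, HISAT2, SAMtools and featureCounts and the mouse build GRCm38.p5; this is per the submitters' processing notes (no versions named). For the annotation and the strand setting of the counting, the sources used here give nothing. The 4 P7 animals sequenced in 2 runs have 1 column each, and 4 P7 libraries are from the second run alone.

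The quasi-likelihood F test of edgeR 4.0.16 (R 4.3.3, TMM scaling, robust) was run on the counts in a single model of 53 libraries, with terms for 12 groups of age and sex and for the replicate set, the set being a term because the rule of this gene set names it. Age differences are the mean of the sexes. The second run holds P7 libraries alone, so its term takes up their level. Fitted differences with P7 rest on the level of the other 8 P7 libraries, and the second run enters them only through the sexes at P7. P-values were adjusted by the Benjamini-Hochberg method over 21118 genes, with a threshold of 0.05. CPM use TMM-scaled totals, and no low-count filter was applied in the main analysis. Fits that leave out 1 library kept the dispersion trend of all libraries. Fits without the replicate set, or replicate block, kept a term for the second run against the rest. Within-set differences are log2 ratios of mean CPM and, with counts of the lists under other settings and P7 values without the second run, were added after the data were examined. The fit was also run on simulated counts with known differences between adults and P1. These had the same spread for every gene and no differences between replicate sets. The simulation therefore cannot speak to the replicate set term or to the other comparisons. DESeq2 1.42.0 and the other alternatives are described at the end.

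The members and all gene lists were chosen with earlier results of these data known. Named genes are all members, up to 4 genes of a list by smallest adjusted p between adults and P1, and the 5 genes most like Myc and Mxd4 over group means (log2 CPM with a prior count of 2). Gene positions and exon lengths come from GENCODE M21 (GRCm38), and promoters from RefSeq (GRCm38.p6), where 6 of 7 members matched. Libraries of a group are separate animals, and depth limits precision by counting error only for low genes such as Mlxipl.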

Additional observations from a re-analysis of the deposited data

Results flagged for a closer look

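In 70 combinations of a member and a group of 4 to 8 libraries, 4 single libraries stood apart by Dixon's criterion, which chance alone meets in about 1 of 20 groups. Mxd1 had 16.2 CPM in adult female 4, against 33.5 to 36.7 CPM in the other adult females. Mycn had 68.9 CPM in P14 male 6, against 7.69 to 23.2 CPM in the other P14 males, 112 CPM in P1 male 3, against 54.2 to 64.0 CPM in the other P1 males, and 95.5 CPM in P4 male 3, against 35.2 to 43.8 CPM in the other P4 males. The 3 Mycn libraries belong to replicate sets 3 and 6, in which the fitted level of Mycn over all ages was higher by 1.35 and 1.55 on the log2 scale relative to set 1. Not every library of these sets was high, since P7 male 6 had the lowest Mycn of the P7 males, 33.1 CPM.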

How the results depend on the processing

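Between adults and P1 the calls of Myc, Mycn, Mycl, Mxd4 and Mxi1 and their directions held in all 8 other settings with a test and in all 53 fits that left out 1 library. Between P14 and P7 they depended on the setting: without the replicate block Mycn had -1.43, Mxd4 0.82 and Mxi1 1.15 and none passed, without the 5 libraries with the letter of the other sex Mxd4 had 0.74 (edgeR adjusted p = 0.0565) and Mxi1 0.88 (0.144), and without the 12 libraries against their sex label Mxd4 had 0.66 (0.114) and Mxi1 0.92 (0.205). Over all settings other than leaving out 1 library, the adjusted p ran from 6.29e-08 to 0.187 for Mycn, from 0.000147 to 0.394 for Mxd4 and from 0.00296 to 0.328 for Mxi1. The cause was not tested. DESeq2 alone called Mycl between P4 and P1, at -1.01.

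Genes called between P4 and P1 were 0 without the replicate block, 670 with DESeq2 and 147 with ages only, against 93. Between P7 and P4 they were 32 without the block, 912 with DESeq2, 152 without libraries with the letter of the other sex, 0 without those against their label, 1093 without the 3 libraries with the fewest genes and 152 with ages only, against 352. Between P14 and P7 they were 4, 1587, 94, 53, 1295 and 1375 in the same order, against 697, of which 50.1% were higher at P14 with TMM and 64.3% with DESeq2-type size factors. DESeq2 called 114 genes between adults and P35, 103 between the sexes and 133 for the sex difference in adult minus P1. Leaving out 1 library gave 19 (without P4 male 1) to 418 (without P1 female 1) genes between P4 and P1, 31 (without P7 male 6) to 777 (without P1 female 4) between P7 and P4, and 74 (without P7 male 2) to 1560 (without P1 female 4) between P14 and P7.

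Signs turned only for members that did not pass, at sizes up to 0.59. Without the replicate block, P4 minus P1 was -0.10 for Myc, -0.14 for Max and -0.0080 for Mxd1, P7 minus P4 was -0.037 for Mxd1, adult minus P35 was -0.12 for Max and 0.048 for Mxd4, female minus male was 0.044 for Myc, 0.13 for Mycn, 0.019 for Mycl, 0.11 for Max and -0.0038 for Mxd4, and the sex difference in adult minus P1 was 0.14 for Mxd4 and 0.59 for Mxi1. Adult minus P1 of Max was 0.0238 with DESeq2, 0.0239 with its size factors in edgeR and 0.017 without the 3 libraries with the fewest genes, and that of Mxd1 was -0.0010 without libraries against their label. P4 minus P1 of Myc was -0.0015 with a filter of 1 CPM in 3 libraries, -0.0021 without libraries with the letter of the other sex and -0.053 with ages only, that of Max was -0.0042 with ages only, and without the 3 libraries with the fewest genes Mxd1 had -0.021 and Mxi1 -0.11. P7 minus P4 of Mxi1 was 0.065 without libraries with the letter of the other sex, 0.048 without those against their label and 0.015 without the 3 with the fewest genes, and that of Mxd1 was -0.011 with ages only. P14 minus P7 of Mxd1 was -0.014 and adult minus P35 of Max -0.053 without libraries with the letter of the other sex. Without those against their label, adult minus P35 was -0.090 for Max and -0.19 for Mxi1, and female minus male 0.021 for Mycl.

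Leaving out 1 library gave these ranges: for Max -0.17 to 0.11 (adult minus P1), -0.10 to 0.15 (P4 minus P1), -0.19 to 0.39 (P7 minus P4), -0.40 to 0.18 (P14 minus P7), -0.052 to 0.16 (adult minus P35) and -0.10 to 0.034 (female minus male); for Mxd1 -0.049 to 0.13 (P4 minus P1), -0.10 to 0.13 (P7 minus P4), -0.025 to 0.22 (P14 minus P7) and -0.20 to 0.045 (adult minus P35); for Mxd4 -0.21 to 0.067 (adult minus P35) and -0.0034 to 0.089 (female minus male). For Mxi1 it gave -0.10 to 0.25 (P4 minus P1), -0.24 to 0.069 (P7 minus P4), 0.85 to 1.18 (P14 minus P7), -0.029 to 0.19 (adult minus P35) and -0.44 to 0.21 (sex difference in adult minus P1). For Myc it gave -0.10 to 0.28 (P4 minus P1), -0.48 to 0.10 (P7 minus P4) and -0.14 to 0.041 (female minus male), and for Mycl -0.14 to 0.018 (female minus male) and -0.058 to 0.81 (sex difference in adult minus P1).

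Deviations of libraries from their group means correlated with a median of 0.35 over 223 pairs of the same replicate set in different groups, with 201 of them over 0.1, and of -0.08 over 1055 pairs of different sets. The labels do not say what the number marks, so the pairing is a hint from the data, and calls lost without the block are not read as weaker effects. In adult minus P1 the block changed no member's call. Levels of the members with plain library totals moved by less than the spread between libraries.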
